A study of Homo sapiens with 12 samples.

Results

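The 43 genes described here act in mitosis and in the G2 phase that precedes it, from B-type cyclins and their kinase CDK1 to the motors of the spindle. They were chosen by symbol, with no measured value in the rule, though with earlier results of these data known. Each of the 43 stands among the 25382 symbols of the count table, and each passed the low-count filter, which left 15437 symbols for testing. RNA was sequenced from Cal27, an established line of human tongue squamous carcinoma cells labelled as wild type, in 12 libraries. All cells had 5 days of conditioning and 1 day after replating on polyacrylamide gels that carried collagen, and 4 conditions with 3 libraries each were compared. Stiff-to-soft cells had gels of 20 kPa during conditioning and 0.48 kPa after replating. LPA-to-FAKi cells had 0.48 kPa throughout, with lysophosphatidic acid (LPA, a lipid that activates G protein-coupled receptors) during conditioning and an inhibitor of focal adhesion kinase (FAK, a kinase of integrin adhesions) after replating. LPA-to-soft cells had the same conditioning and no inhibitor after replating. Soft-to-soft cells had 0.48 kPa throughout and neither agent. In the design of the study, stiff-to-soft cells and LPA-to-soft cells form a class that learned, and LPA-to-FAKi cells and soft-to-soft cells a class that did not. All libraries come from this single line, and the sources used here give no dose of LPA or inhibitor. Whether replicates were separate cultures is not stated either, so the p-values cover the spread among libraries, and that spread may be technical.

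Cells enter mitosis when CDK1, bound to cyclin B, becomes active. The spindle then forms, the kinetochores attach chromosomes to it, and a checkpoint holds back the anaphase-promoting complex (APC/C) until attachment is complete. Transcripts of these genes are low in G1 and accumulate towards mitosis, which makes them common markers of dividing tumour cells. In RNA from whole cultures, fewer cells in G2 or mitosis and less transcript in each such cell cannot be told apart.

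Many genes of this class carry a CHR element (cell cycle genes homology region) and CCAAT boxes near their start, which in human cells are bound by the DREAM and MYB-MuvB complexes and by NF-Y. RefSeq promoter windows of GRCh38.p14, from 250 bases before to 50 bases after the start, matched 36 of the 43 genes. FOXM1, AURKA, BUB3, BIRC5, TPX2, TTK and UBE2C were not matched. The motifs TTTGAA or TTCGAA, searched on both strands for the CHR element, stood in 26 of the 36 windows (72.2%), against 16.6% of the windows of 27305 genes. The motif CCAAT, on either strand, stood in 27 of 36 (75%), against 35.7%. Both stood in 22 of 36 (61.1%), against 6.58%. A match is a description of the letters and no evidence of binding. The 130 bases before the start are shown for CCNB1 (chr5:69167020-69167149), PLK1 (chr16:23678759-23678888) and CCNB2 (chr15:59105016-59105145), all on the plus strand. CCAAT and the CHR motif as searched are in capitals. CCNB1 had matches to CCAAT only, and PLK1 and CCNB2 had matches to both motifs.
CCNB1: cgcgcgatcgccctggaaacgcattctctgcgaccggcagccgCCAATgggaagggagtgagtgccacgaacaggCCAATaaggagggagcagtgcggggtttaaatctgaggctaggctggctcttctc
PLK1: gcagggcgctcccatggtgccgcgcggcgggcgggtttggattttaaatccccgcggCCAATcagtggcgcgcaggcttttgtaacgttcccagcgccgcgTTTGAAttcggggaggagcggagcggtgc
CCNB2: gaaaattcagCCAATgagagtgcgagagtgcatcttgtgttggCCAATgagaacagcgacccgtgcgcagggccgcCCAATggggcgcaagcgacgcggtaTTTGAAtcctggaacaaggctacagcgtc
PLK1 and CCNB2 each have 1 CHR motif that begins 29 bases before the start, and their CCAAT boxes lie further upstream. In the CCNB1 window the search found CCAAT boxes and neither TTTGAA nor TTCGAA, which says only that these letters are not in this window. Other spellings of the CHR element were not searched, so this is no evidence that CCNB1 lacks one.

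Total counts ran from 62953957 to 122311183 per library, and a single one of the 43 genes had between 878 and 57167 counts in a library. Low counts (1 to 19) were nearly all even in 10 libraries, at 96.8% to 97.85%, but not in soft-to-soft replicates 1 and 2, at 42.9% and 42.2%, so results against soft-to-soft are also given without these libraries where that matters. That leaves replicate 3 as the only soft-to-soft library, so those values rest on 1 library. Libraries with the same replicate number deviated together from the means of their conditions, and values are therefore also given from a fit with that number as a block. LPA-to-FAKi replicate 1 stood apart from the other 11 libraries in the 43 genes, and medians, counts and the genes that results turn on are also given without it. Squamous markers (KRT5, KRT14, KRT17, TP63, CDH1 and DSG3) were present in every library, with a summed level of 4500 to 11300 CPM. The summed levels were 14.6 to 36.4 CPM for 6 fibroblast markers, mostly COL1A1, 5.74 to 37.8 CPM for 4 endothelial markers, mostly CDH5, and 1.04 to 5.52 CPM for leukocyte markers, of which CD3E was at 0 everywhere. Levels are given as CPM (counts scaled to the library total, with TMM factors), not corrected for gene length, so they compare libraries and not genes.

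The mean level of the 43 genes overlapped between conditions, and nearly all genes were at their lowest in LPA-to-FAKi replicate 1. That library stood at a mean log2 CPM of 6.46, and the others ran from 6.74 to 7.06, both of these in stiff-to-soft libraries. Averaged over the 43 genes, log2 CPM stood at 7.06, 6.90 and 6.74 in stiff-to-soft replicates 1, 2 and 3. It was 6.46, 6.84 and 6.77 in LPA-to-FAKi libraries, 6.90, 6.86 and 6.82 in LPA-to-soft libraries, and 6.99, 6.95 and 6.79 in soft-to-soft libraries. LPA-to-FAKi replicates 2 and 3 lay within the range of the other 9 libraries, and replicate 1 lay below every other library. As means of conditions these are 6.90 ± 0.16 in stiff-to-soft, 6.69 ± 0.20 in LPA-to-FAKi, 6.86 ± 0.041 in LPA-to-soft and 6.91 ± 0.11 in soft-to-soft (SD, n = 3). The class that learned stood at 6.88 ± 0.11 and the class that did not at 6.80 ± 0.19 (SD, n = 6). The 43 genes took 0.514% of the counts in LPA-to-FAKi replicate 1 and 0.780% in stiff-to-soft replicate 1, the lowest and highest shares of the 12 libraries.

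**Figure D1:**
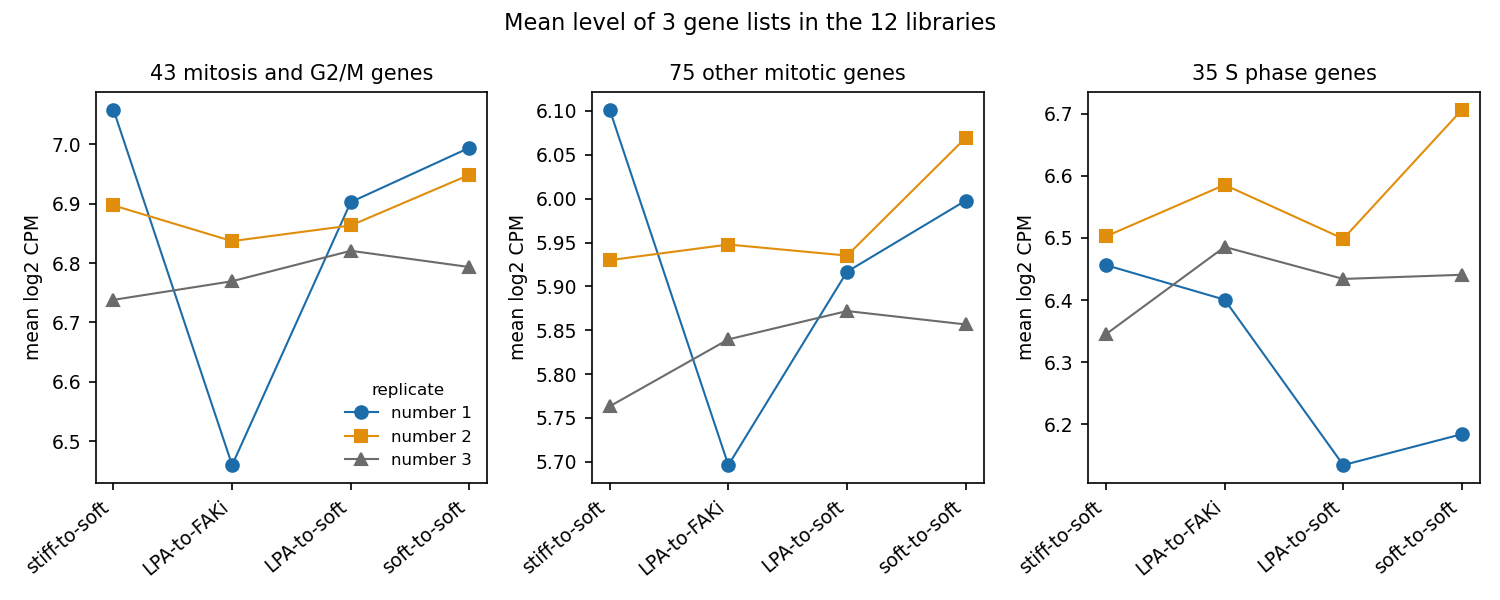
Mean log2 CPM of the 43 mitosis and G2/M genes (left), 75 other mitotic genes (middle) and 35 S phase genes (right) in the 12 libraries, with condition on the x axis and a separate y scale for each panel. Lines join libraries of the same replicate number; LPA-to-FAKi replicate 1 is the lowest library in the left panel at 6.46 and in the middle panel at 5.70, and not in the right panel at 6.40.

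LPA-to-FAKi replicate 1 held the lowest of the 12 values for 38 of the 43 genes (88.4%), against 12.7% of all 15437 genes. The exceptions were CDK1, KIF23 and the kinase AURKB, lowest in stiff-to-soft replicate 3, the APC/C ubiquitin-conjugating enzyme UBE2C, lowest in LPA-to-soft replicate 3, and the checkpoint protein BUB3, lowest in LPA-to-soft replicate 1. At the other end, stiff-to-soft replicate 1 held the highest value for 18 genes (41.9%), against 4.94% of all genes. The total count of LPA-to-FAKi replicate 1, 76083175, was the lowest of the 10 libraries with nearly even low counts, the next being 83122251, and exceeded those of soft-to-soft replicates 1 and 2, 73018393 and 62953957. The cause of its low values was not tested.

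**Figure D2:**
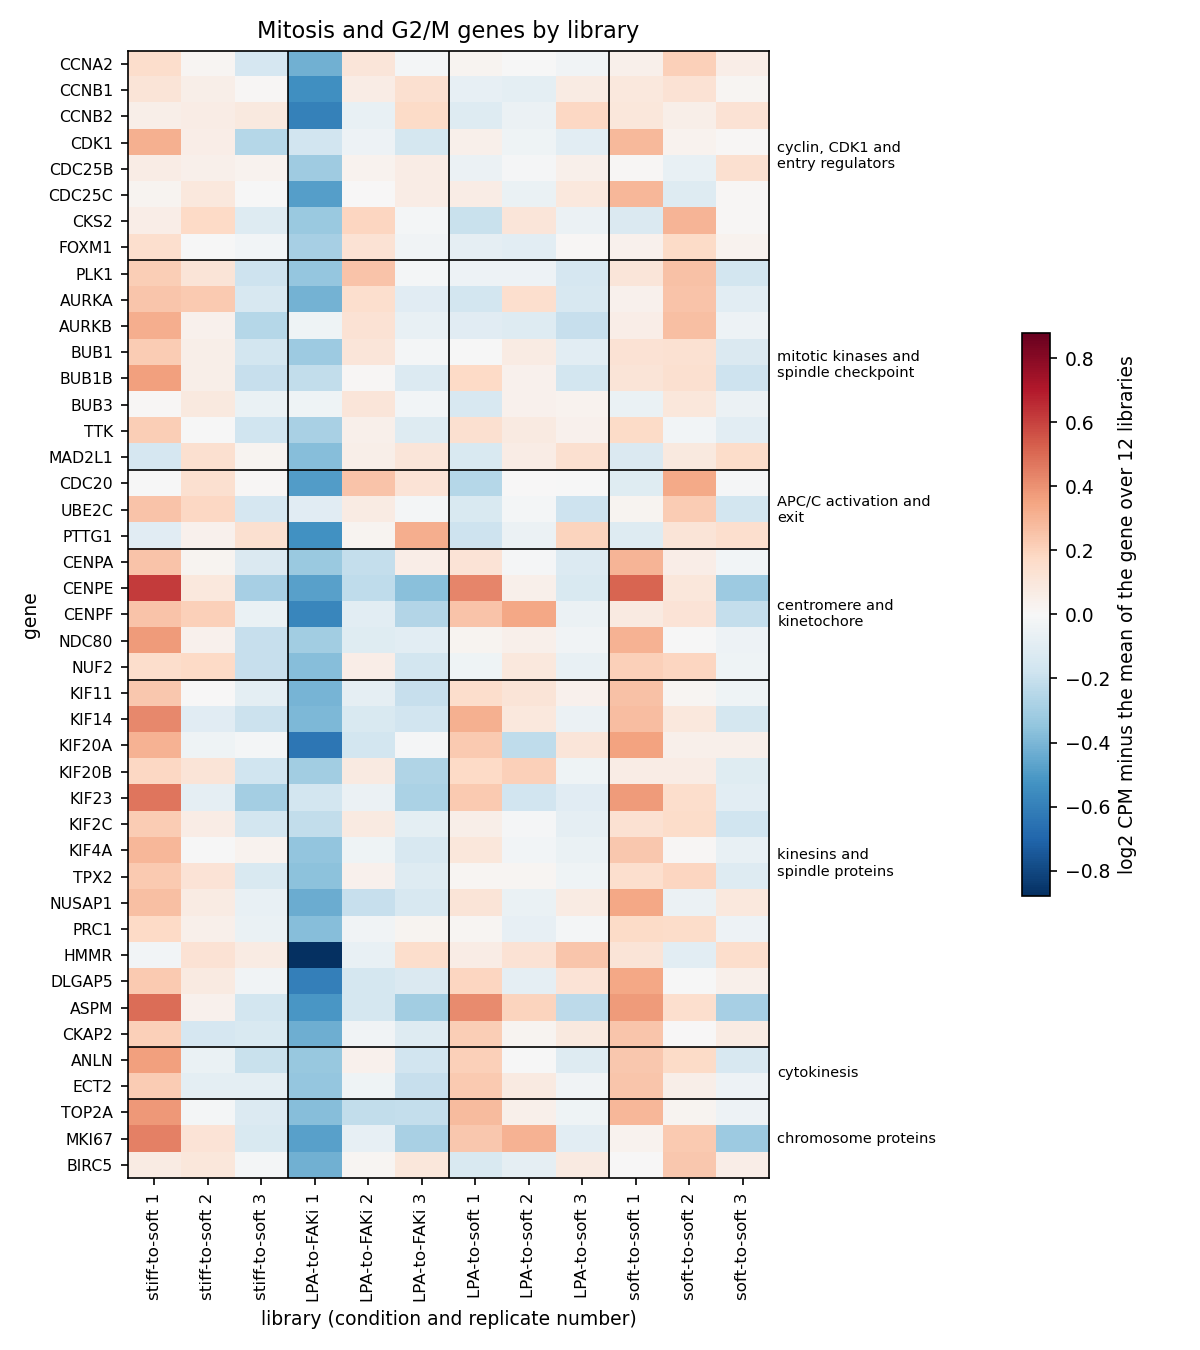
Level of each of the 43 genes (down the page, grouped by role) in each of the 12 libraries (across), as log2 CPM minus the mean of that gene over the 12 libraries, with red above and blue below that mean. The column of LPA-to-FAKi replicate 1 is blue for nearly every gene and is the lowest for 38 of them.

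Cyclin B1, its kinase and regulators of mitotic entry overlapped between most conditions. CCNB1, which activates CDK1, had 374, 358 and 348 CPM in stiff-to-soft replicates 1, 2 and 3, 237, 362 and 380.5 CPM in LPA-to-FAKi, 329, 326 and 364 CPM in LPA-to-soft and 368, 378 and 349 CPM in soft-to-soft libraries. A single library is low, LPA-to-FAKi replicate 1, and the highest value of all belongs to the same condition. CDK1, the kinase itself, had 129, 108 and 87.5 CPM in stiff-to-soft libraries, 92.5, 101 and 93.5 CPM in LPA-to-FAKi, 107, 101 and 97.3 CPM in LPA-to-soft and 127, 106 and 105 CPM in soft-to-soft libraries. The LPA-to-FAKi values lie below all 3 soft-to-soft values and overlap those of the other conditions. The forkhead factor FOXM1, which drives transcription of G2/M genes, had 235, 212 and 209 CPM in stiff-to-soft libraries, 173, 232 and 207 CPM in LPA-to-FAKi, 200.5, 199 and 213 CPM in LPA-to-soft and 217, 238 and 217 CPM in soft-to-soft libraries. Its LPA-to-soft values lie below its soft-to-soft values by a narrow margin, and its LPA-to-FAKi values spread across all the others. The polo kinase PLK1, which acts at centrosomes, kinetochores and the midzone, had 299, 278 and 226 CPM in stiff-to-soft libraries, 203, 306 and 254 CPM in LPA-to-FAKi, 249, 249.7 and 232 CPM in LPA-to-soft and 276, 307 and 229.5 CPM in soft-to-soft libraries. Among LPA-to-FAKi libraries, replicate 1 gave the lowest value of the 12 and replicate 2 nearly the highest.

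CENPF, TOP2A and MKI67 represent the kinetochore and the chromosomes. CENPF, a large protein of the outer kinetochore and corona, had 172, 167 and 139 CPM in stiff-to-soft libraries, 97.0, 135 and 121 CPM in LPA-to-FAKi, 171, 182 and 139 CPM in LPA-to-soft and 152, 157 and 124 CPM in soft-to-soft libraries. All LPA-to-FAKi values lie below all stiff-to-soft and all LPA-to-soft values, and overlap those of soft-to-soft. TOP2A, the topoisomerase that untangles sister chromatids, had 469, 356 and 331 CPM in stiff-to-soft libraries, 277, 309 and 311 CPM in LPA-to-FAKi, 437, 372 and 350.2 CPM in LPA-to-soft and 439.5, 366 and 348 CPM in soft-to-soft libraries. Its LPA-to-FAKi values lie below those of all 9 other libraries, and the gap is narrow in replicates 2 and 3. MKI67, whose product Ki-67 coats mitotic chromosomes and marks proliferating cells, had 425, 341 and 286 CPM in stiff-to-soft libraries, 226, 299 and 258 CPM in LPA-to-FAKi, 369, 388 and 294 CPM in LPA-to-soft and 320.0, 368 and 251 CPM in soft-to-soft libraries. LPA-to-FAKi replicate 1 is the lowest, and replicates 2 and 3 overlap the other conditions.

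**Figure D3:**
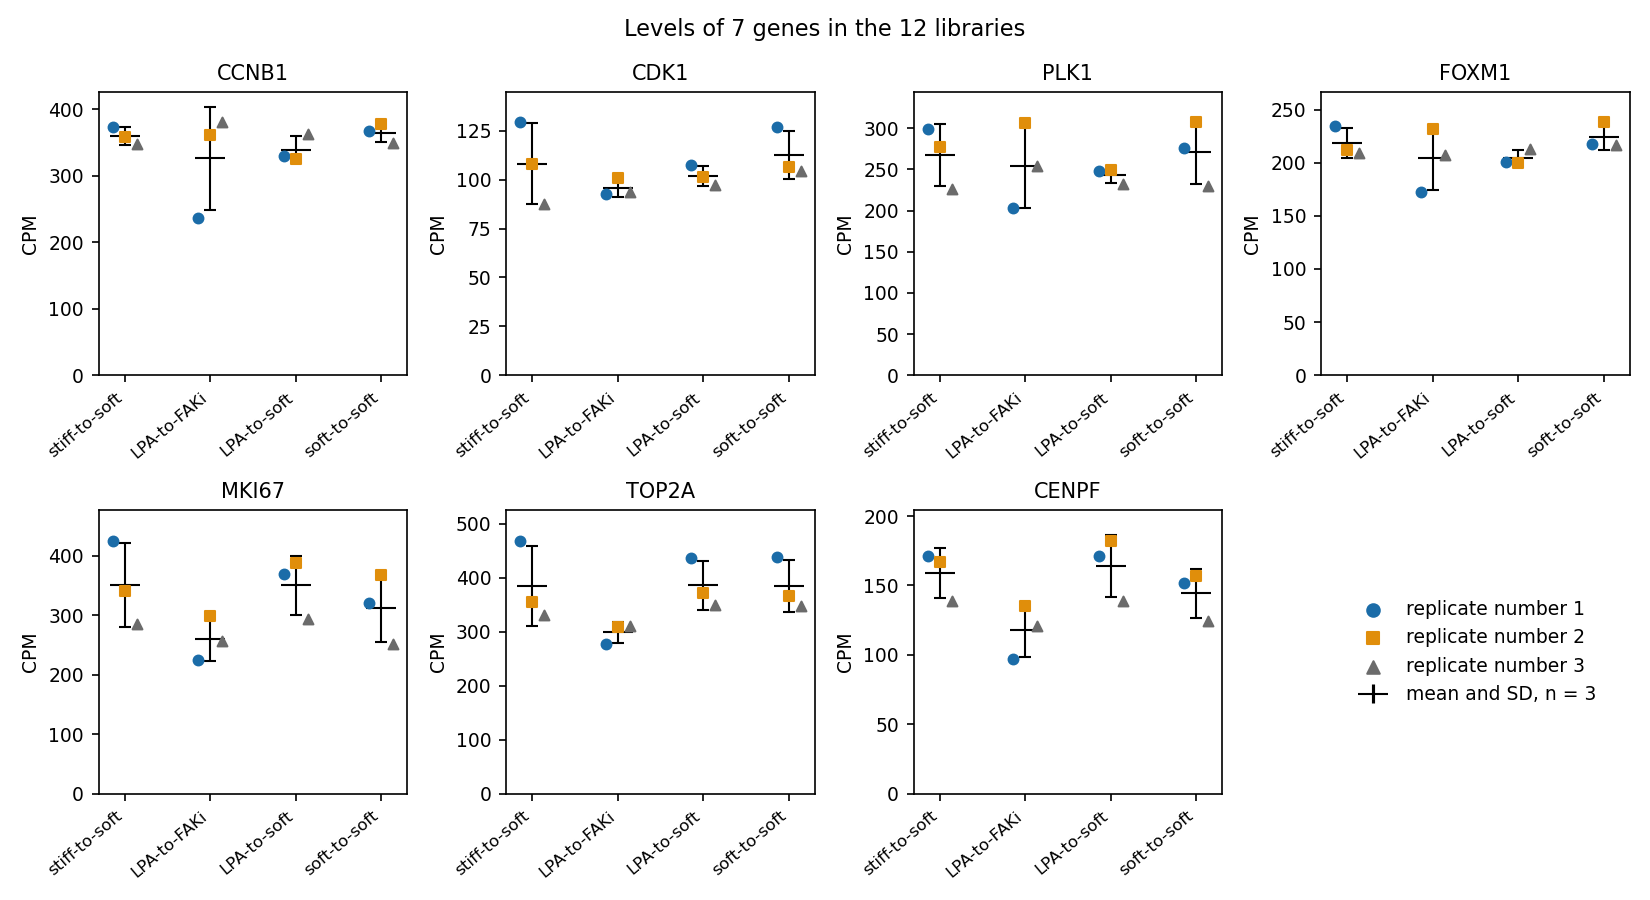
CPM of CCNB1, CDK1, PLK1, FOXM1, MKI67, TOP2A and CENPF in the 12 libraries by condition, with points for libraries (colour and shape give the replicate number) and bars for mean and SD (n = 3). TOP2A and CENPF are lowest in the LPA-to-FAKi condition in replicates 1, 2 and 3 when each is set against the LPA-to-soft library of its own number; CCNB1 and PLK1 have their lowest value in LPA-to-FAKi replicate 1.

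The effect of the FAK inhibitor after LPA conditioning was asked by setting LPA-to-FAKi against LPA-to-soft cells. Most genes of the kinetochore, the spindle and the chromosomes averaged lower in LPA-to-FAKi libraries, the medians for cyclins, mitotic kinases and APC/C regulators were nearer 0, and none passed the test. edgeR's quasi-likelihood test called 0 of the 43 genes at an adjusted p under 0.05, without or with the replicate block, where 0% of all genes were called. At an unadjusted p under 0.05, 8 genes were lower without the block, against 2.86% of all genes, and 13 with it, against 10.8% of all genes. DESeq2 without the block called 0 of the 43. DESeq2 with the block called 6 of the 43 lower, against 4.53% of all genes: CENPF (adjusted p = 0.00363), MKI67 (0.0261), TOP2A (0.0283), the spindle motor KIF11 (0.0468), the kinesin KIF20B (0.0474) and the spindle pole protein ASPM (0.0485). The same test called CENPF alone without LPA-to-FAKi replicate 1 (adjusted p = 0.0294), against 0.448% of all genes called lower. In the edgeR fit with the block the adjusted p of these 6 ran from 0.0816 for CENPF to 0.132 for ASPM. The median log2 fold change of the 43 genes was -0.15, with 6 positive, against -0.0048 over all genes tested.

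The size of these differences varied between the replicate numbers. The median difference in log2 CPM between the LPA-to-FAKi and LPA-to-soft libraries of the same number was -0.43 in number 1, -0.0035 in number 2 and -0.054 in number 3. LPA-to-FAKi was lower for 40 of 43 genes in number 1 (93.0%, against 50.7% of all genes). It was lower for 23 in number 2 (53.5%, against 48.8%) and for 28 in number 3 (65.1%, against 49.3%). For 39 of the 43 genes the widest of the 3 differences was that of number 1. In that number the median difference was -0.46 for the 26 genes with TTTGAA or TTCGAA in the promoter window and -0.46 for the 10 without. Only these spellings were searched, so the 10 may carry other forms of the CHR element. A role of the element was not tested. Without LPA-to-FAKi replicate 1, the median log2 fold change was -0.077 with 18 genes positive in the fit without the block, and 0.0079 with 22 positive in the fit with it. Without the block 1 gene was then lower at an unadjusted p under 0.05 (1.83% of all genes), and with it 7 were lower (5.99%) and 2 higher (5.61%). The fit without the block then sets LPA-to-FAKi replicates 2 and 3 against LPA-to-soft replicates 1, 2 and 3. Its medians by role therefore also carry differences between numbers. Chromosome proteins averaged 8.20, 8.17 and 8.06 log2 CPM in those LPA-to-soft libraries and 7.98 and 7.94 in those LPA-to-FAKi libraries. APC/C genes averaged 7.28, 7.45 and 7.48 against 7.59 and 7.61. In replicates 2 and 3, centromere and kinetochore genes averaged 5.75 and 5.57 in LPA-to-soft against 5.53 and 5.48 in LPA-to-FAKi. In the same order, kinesins and spindle proteins averaged 6.77 and 6.76 against 6.69 and 6.63, and cytokinesis genes 7.98 and 7.87 against 7.94 and 7.76. Cyclin, CDK1 and entry genes averaged 6.90 and 6.96 against 6.99 and 6.96, and kinase and checkpoint genes 6.70 and 6.59 against 6.77 and 6.62. The medians by role, without the block, were then -0.12 for centromere and kinetochore genes, -0.32 for chromosome proteins, -0.18 for kinesins and spindle proteins and -0.17 for cytokinesis genes. They were 0.042 for cyclin, CDK1 and entry genes, 0.051 for kinase and checkpoint genes and 0.18 for APC/C genes, with 6 of 8, 6 of 8 and 3 of 3 positive.

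A subset kept its direction in each number. LPA-to-FAKi was lower in 3 of 3 numbers for 20 genes (46.5%, against 22.2% of all genes). Number 1, where 40 of the 43 were lower (93.0%, against 50.7% of all genes), raises that share. LPA-to-FAKi libraries lay wholly below those of LPA-to-soft for 10 genes, against 5.4% of all genes. These 10 were CENPE, CENPF, NDC80, TOP2A, DLGAP5, KIF14, KIF11, NUSAP1, CKAP2 and ECT2. AURKB lay wholly above, the only such gene of the 43 (5.95% of all genes).

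**Figure D4:**
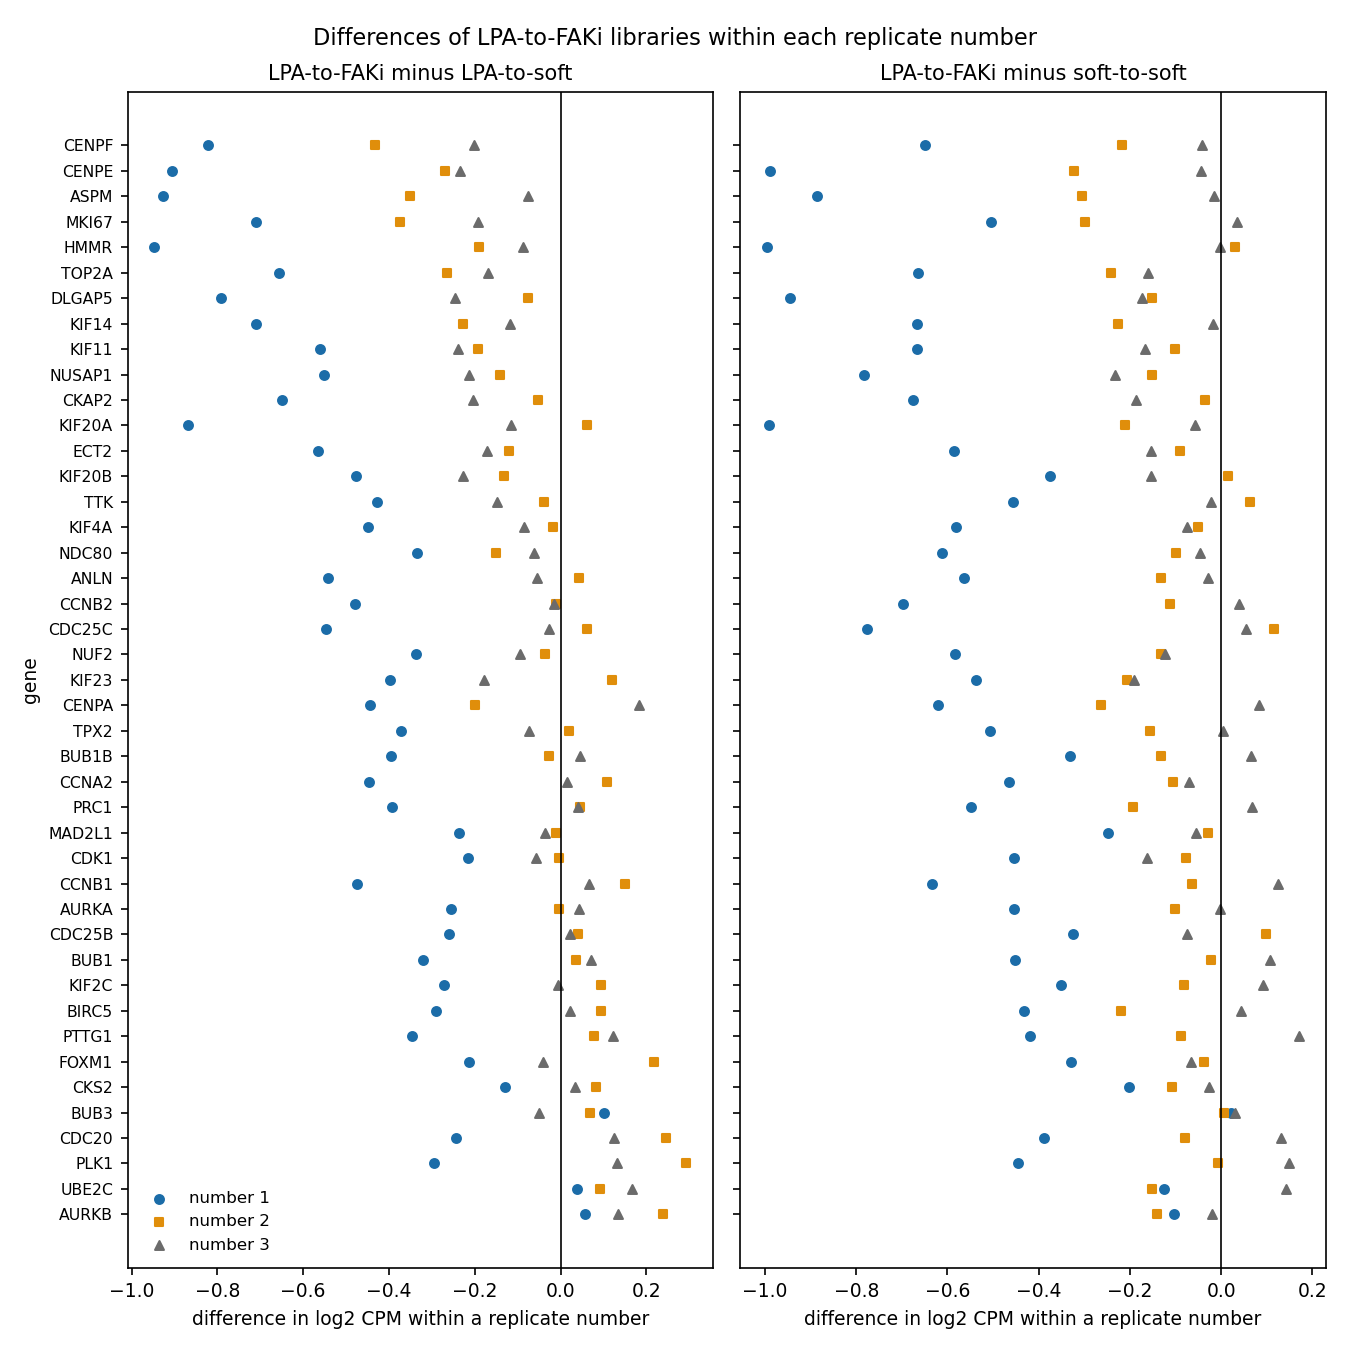
Difference in log2 CPM between the LPA-to-FAKi library and the LPA-to-soft library (left) or the soft-to-soft library (right) of the same replicate number, for each of the 43 genes, ordered by the left-hand fold change of the fit with the block. Points of number 1 lie farthest left for most genes, down to -0.95 in the left panel and -0.996 in the right, while points of numbers 2 and 3 lie nearer 0.

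Medians by role are given without the block, and values of single genes, as log2 fold change ± SE, with it. The centromere and kinetochore genes had a median log2 fold change of -0.18 for LPA-to-FAKi against LPA-to-soft, with 0 of 5 positive. CENPF stood at -0.47 ± 0.108 (edgeR with the block, adjusted p = 0.0816), with -0.82, -0.43 and -0.20 within numbers 1, 2 and 3. Leaving out LPA-to-FAKi replicate 1 gave -0.31 (adjusted p = 0.298). It passed the threshold in edgeR with the block when LPA-to-FAKi replicate 3 (adjusted p = 0.0457) or soft-to-soft replicate 2 (0.0439) was left out. CENPE, the kinesin that moves chromosomes to the spindle equator, stood at -0.44 ± 0.155 (adjusted p = 0.136). Its LPA-to-FAKi libraries had 26.0, 30.9 and 28.0 CPM and its LPA-to-soft libraries 48.7, 37.3 and 33.0 CPM, with no overlap and the widest gap in number 1. The centromeric histone CENPA and the microtubule-binding NDC80 and NUF2 stood at -0.14, -0.17 and -0.15.

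The 3 chromosome proteins had a median of -0.37, with none positive. TOP2A stood at -0.35 ± 0.105 (edgeR with the block, adjusted p = 0.108), with -0.66, -0.27 and -0.17 within numbers 1, 2 and 3. MKI67 stood at -0.41 ± 0.126 (adjusted p = 0.11), with -0.71, -0.38 and -0.19. Both were lower in 3 of 3 numbers. With LPA-to-FAKi replicate 1 left out they stood at -0.20 (adjusted p = 0.343) and -0.26 (adjusted p = 0.399). BIRC5, the survivin subunit of the chromosomal passenger complex, differed in sign between the numbers, at -0.29, 0.095 and 0.022 within the 3 numbers.

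Among kinesins and spindle proteins 0 of 14 were positive, with a median of -0.30, and 8 had an unadjusted p under 0.05 with the block, where 10.8% of all genes were lower at that threshold. KIF11, which pushes spindle poles apart, had 88.6, 111 and 102 CPM in LPA-to-FAKi against 130.5, 127 and 120.4 CPM in LPA-to-soft libraries and stood at -0.32 ± 0.101 (edgeR with the block, adjusted p = 0.115). KIF20B, a kinesin of late mitosis, had 51.7, 67.5 and 53.2 CPM against 72.0, 73.9 and 62.4 CPM and stood at -0.27 ± 0.0829 (adjusted p = 0.11). The KIF11 libraries do not overlap, while LPA-to-FAKi replicate 2 exceeds LPA-to-soft replicate 3 for KIF20B. ASPM, which focuses spindle poles, had 37.3, 47.7 and 42.9 CPM against 70.9, 60.8 and 45.2 CPM and stood at -0.43 ± 0.147 (adjusted p = 0.132). With LPA-to-FAKi replicate 1 left out, KIF11, KIF20B and ASPM stood at -0.18, -0.17 and -0.20 (adjusted p = 0.387, 0.401 and 0.401). The microtubule-binding NUSAP1 and DLGAP5 stood at -0.29 and -0.35. HMMR, a spindle assembly factor, had the widest difference of any of the 43 genes in number 1, at -0.95, with -0.19 and -0.088 in numbers 2 and 3. The remaining 8, in the fit with the block, were KIF14 at -0.33, CKAP2 at -0.29, KIF20A at -0.28, KIF23 at -0.14, KIF4A at -0.17, TPX2 at -0.13, PRC1 at -0.092 and KIF2C at -0.056.

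Both cytokinesis genes were on the negative side. ECT2, the exchange factor that activates RhoA at the cell equator, had 119, 146 and 130.5 CPM in LPA-to-FAKi against 176, 159 and 147 CPM in LPA-to-soft libraries, which do not overlap, and stood at -0.28 ± 0.0979 (edgeR with the block, adjusted p = 0.14). ANLN, the anillin scaffold of the contractile ring, stood at -0.17 ± 0.123 (adjusted p = 0.443) with overlapping libraries.

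The medians of the other roles were nearer 0, and differences between roles were not tested. Cyclin, CDK1 and entry genes had a median of -0.074 with 1 of 8 positive, the kinase and checkpoint genes -0.061 with 3 of 8 positive, and the APC/C genes 0.072 with 2 of 3 positive. Cyclin B2 (CCNB2) and the phosphatase CDC25C, which activates CDK1, had the smallest p of the first group, at -0.15 ± 0.119 and -0.15 ± 0.144 (adjusted p = 0.48 and 0.567, edgeR with the block). Within this group CCNA2 stood at -0.10, CDK1 at -0.088, CCNB1 at -0.068, CDC25B at -0.061, FOXM1 at -0.0065 and CKS2, which binds CDK1, at -0.0019. In the second group TTK, the kinase that starts checkpoint signalling, stood at -0.20 ± 0.0999 and AURKB, the kinase that corrects attachments, at 0.14 ± 0.0988 (adjusted p = 0.275 and 0.414). AURKB had 77.3, 86.8 and 76.0 CPM in LPA-to-FAKi against 74.3, 73.6 and 69.2 CPM in LPA-to-soft libraries, and was higher in 3 of 3 numbers without passing the test. The other checkpoint and kinase genes stood at -0.12 for BUB1B, -0.092 for MAD2L1, -0.060 for BUB1, -0.063 for AURKA, 0.038 for BUB3 and 0.056 for PLK1. UBE2C stood at 0.10 ± 0.0829 and was higher in 3 of 3 numbers (adjusted p = 0.505). The APC/C activator CDC20 stood at 0.051 and the securin PTTG1, which APC/C destroys at anaphase, at -0.039, with number 1 opposite in sign to numbers 2 and 3 for both (-0.24, 0.25 and 0.12 for CDC20).

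LPA-to-FAKi cells were also set against soft-to-soft cells, which had neither agent. This comparison shares the 3 LPA-to-FAKi libraries with the one above. The median log2 fold change of the 43 genes was -0.22, with BUB3 alone positive, against 0.0022 over all genes. edgeR called 0 of the 43 genes without or with the block, where 0.564% of all genes were called with the block. At an unadjusted p under 0.05 there were 6 genes, all lower, without the block (2.12% of all genes) and 14 with it (8.98% of all genes). DESeq2 called 0 without the block and 2 with it, NUSAP1 (adjusted p = 0.0326) and TOP2A (0.044), against 3.07% of all genes called lower. It called 0 with the block when LPA-to-FAKi replicate 1 was left out (1.13% of all genes lower). NUSAP1 had 118, 139 and 145 CPM in LPA-to-FAKi against 202, 154 and 170.2 CPM in soft-to-soft libraries and stood at -0.38 ± 0.111 (edgeR with the block, adjusted p = 0.138). TOP2A stood at -0.35 ± 0.105 (adjusted p = 0.148) and KIF11 at -0.30 ± 0.101 (adjusted p = 0.181). Leaving out LPA-to-FAKi replicate 1 gave -0.23, -0.19 and -0.16 (adjusted p = 0.466, 0.455 and 0.556). The lowest fold change was that of CENPE, at -0.49 without the block, and the highest that of BUB3, at 0.019.

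Number 1 again gave the widest differences from soft-to-soft cells. The median difference was -0.54 in number 1, -0.11 in number 2 and -0.021 in number 3, with 42, 37 and 27 of the 43 genes lower (48.8%, 51.5% and 49.4% of all genes). LPA-to-FAKi was lower in 3 of 3 numbers for 23 genes (53.5%, against 17.7% of all genes). Number 1, where 42 of the 43 were lower, raises that share. LPA-to-FAKi libraries lay wholly below soft-to-soft for 8, against 3.12% of all genes, namely DLGAP5, KIF20A, NUSAP1, TOP2A, KIF11, CKAP2, NDC80 and CDK1. Without LPA-to-FAKi replicate 1 the median was -0.10 in the fit without the block and -0.066 with it, and the genes lower at an unadjusted p under 0.05 were 1 (1.66% of all genes) and 4 (5.34%). When soft-to-soft replicates 1 and 2 were left out, which leaves replicate 3 as the only soft-to-soft library, the median was -0.10, with 8 positive. By role the medians ran from -0.30 for kinesins and spindle proteins, with 0 of 14 positive, to -0.075 for the APC/C genes. They stood at -0.21 and 0.096 for these roles without LPA-to-FAKi replicate 1, where number 1 is present in soft-to-soft only.

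Stiff-to-soft cells set against LPA-to-FAKi cells, which share those 3 libraries once more, gave 43 of 43 positive log2 fold changes with a median of 0.20, against -0.0027 over all genes. edgeR called 0 of the 43 without or with the block, where 0.0324% of all genes were called with it. At an unadjusted p under 0.05, 7 genes were higher without the block (1.68% of all genes) and 10 with it (6.55% of all genes). DESeq2 called 0 without the block and 2 higher with it, CENPF (adjusted p = 0.0141) and MKI67 (0.0498), against 1.41% of all genes. DESeq2 with the block called 0 without LPA-to-FAKi replicate 1 (0.469% of all genes higher). In edgeR with the block CENPF stood at 0.43 ± 0.108 (adjusted p = 0.148), MKI67 at 0.42 ± 0.126 (0.235) and TOP2A at 0.34 ± 0.105 (0.241). Leaving out LPA-to-FAKi replicate 1 gave 0.26, 0.25 and 0.18 (adjusted p = 0.321, 0.620 and 0.584). CENPE had the highest fold change without the block, at 0.54, and BUB3 the lowest, at 0.0001. The median difference was 0.57 in number 1, 0.073 in number 2 and -0.045 in number 3. With that library left out, the median log2 fold change was 0.095 without the block, with 33 genes positive, and 0.034 with it, and the genes higher at an unadjusted p under 0.05 were 0 (1.02% of all genes) and 6 (3.85%). Stiff-to-soft lay wholly above LPA-to-FAKi for 5 genes (3.64% of all genes): KIF4A, a motor bound to chromosomes, NUSAP1, TOP2A, DLGAP5 and CENPF.

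The classes were compared to ask what separates cells that learned from those that did not. For each of the 43 genes the 6 libraries of one class overlapped the 6 of the other, and of all genes 0.0972% lay wholly above and 0.0389% wholly below. The median log2 fold change was 0.055, with 33 positive, against -0.0069 over all genes. edgeR called 0 of the 43 without or with the block, where 0.00648% of all genes were called with it, and DESeq2 called 0 in both fits. At an unadjusted p under 0.05, 2 genes were higher without the block (1.63% of all genes) and 3 with it (5.13% of all genes), and none was lower. These 3 were CENPF at 0.30 ± 0.0934 (edgeR with the block, adjusted p = 0.344), MKI67 at 0.29 ± 0.0975 (0.39) and KIF20B at 0.15 ± 0.0667 (0.479). CENPF averaged 162 ± 18.4 CPM in the class that learned and 131 ± 22.1 CPM in the class that did not (SD, n = 6 each), and was higher in 3 of 3 numbers, by 0.50, 0.26 and 0.18. AURKB had the lowest fold change, -0.092, followed by CDC20 and PLK1 in order of p with the block among negative values, at -0.035 and -0.034. The class median was 0.23 in number 1, -0.0089 in number 2 and -0.0071 in number 3. Leaving out LPA-to-FAKi replicate 1 gave -0.0097 without the block, with 20 genes positive, and -0.027 with it. The genes higher at an unadjusted p under 0.05 were then 1 (1.19% of all genes) and 2 (4.45%), and DESeq2 with the block called CENPF higher (adjusted p = 0.0390; 0.529% of all genes). Leaving out soft-to-soft replicates 1 and 2 instead gave 0.14, with 39 positive, and 12 genes higher at an unadjusted p under 0.05 without the block (1.98% of all genes) and 13 with it (6.38%), none of them called. The class that did not learn then held the 3 LPA-to-FAKi libraries and only replicate 3 of soft-to-soft. These values are thus largely a comparison with LPA-to-FAKi cells, including their replicate 1.

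The remaining comparisons ask what stiff or LPA conditioning left behind after a day on soft gels, and the 43 genes showed no call in any of them. Between stiff-to-soft and soft-to-soft cells the median was -0.024, with 14 positive. edgeR called 0 of the 43 without or with the block, where 0.583% of all genes were called with it, and 0 of the 43 had an unadjusted p under 0.05 in either fit. MKI67, CENPF and UBE2C had the smallest p among positive values, at 0.17 ± 0.125, 0.14 ± 0.108 and 0.069 ± 0.0829, and CKAP2, KIF23 and CCNA2 among negative values, at -0.13 ± 0.119, -0.11 ± 0.114 and -0.092 ± 0.113 (edgeR with the block, adjusted p of 0.739 or more). The median within numbers was 0.074, -0.070 and -0.052. Without soft-to-soft replicates 1 and 2, and so against replicate 3 alone, the median log2 fold change was 0.083. Values of stiff-to-soft and soft-to-soft libraries overlapped for all 43 genes, where stiff-to-soft lay wholly above for 2.16% of all genes and wholly below for 2.19%.

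For LPA-to-soft against soft-to-soft cells the median was -0.060, with 11 positive, and edgeR called 0 of the 43 and 0% of all genes. With the block 1 gene had an unadjusted p under 0.05, AURKB, against 3.6% of all genes on the lower side. AURKB had 74.3, 73.6 and 69.2 CPM in LPA-to-soft against 83.0, 95.7 and 77.0 CPM in soft-to-soft libraries, which do not overlap, and stood at -0.23 ± 0.0989 (adjusted p = 0.611). LPA-to-soft also lay wholly below soft-to-soft for FOXM1 and CCNA2, so for 3 genes in all, against 2.18% of all genes. UBE2C and CDK1 followed AURKB in order of p, at -0.14 ± 0.0829 and -0.14 ± 0.0935. On the positive side stood CENPF, MKI67 and KIF20B, at 0.18 ± 0.108, 0.17 ± 0.125 and 0.11 ± 0.0828. Without soft-to-soft replicates 1 and 2, and so against replicate 3 alone, the median was 0.033.

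Between stiff-to-soft and LPA-to-soft cells, the 2 conditions of the class that learned, the median was 0.053, with 32 positive, and edgeR called 0 of the 43, where 0.00648% of all genes were called with the block. UBE2C alone had an unadjusted p under 0.05 with the block (4.63% of all genes on the higher side). It had 173, 165 and 131 CPM in stiff-to-soft against 132, 144 and 128 CPM in LPA-to-soft libraries, which overlap, and stood at 0.21 ± 0.0829 (adjusted p = 0.504), higher in 3 of 3 numbers. AURKB and AURKA came next, at 0.18 ± 0.0989 and 0.17 ± 0.105, and CKAP2, KIF20B and ECT2 on the negative side, at -0.13 ± 0.119, -0.073 ± 0.0827 and -0.073 ± 0.0977. DESeq2 called 0 of the 43 with or without the block in these 3 comparisons, where with the block it called 3.27%, 0.792% and 0.509% of all genes, in the order in which they are described. Stiff-to-soft replicate 1 weighs on the median: without it the value was -0.055 without the block.

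A test of any difference among the 4 conditions called 0 of the 43 genes in edgeR, where 0% of all genes were called without the block and 0.214% with it. At an unadjusted p under 0.05 there were 2 genes without the block, CENPF and NUSAP1 (2.25% of all genes), and 9 with it (18.2% of all genes). The DESeq2 likelihood ratio test called 0 without the block and 3 with it, against 8.9% of all genes. These were CENPF (adjusted p = 0.00568), TOP2A (0.0379) and MKI67 (0.0442), whose adjusted p in edgeR with the block was 0.136, 0.193 and 0.213. When LPA-to-FAKi replicate 1 was left out, 0 genes had an unadjusted p under 0.05 without the block (1.37% of all genes) and 1 with it (12.7%), and DESeq2 with the block called 1, CENPF (5.36% of all genes).

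Over the 12 libraries, LPA-to-FAKi replicate 1 among them, replicate number and condition held similar shares of the variation. The shares were not computed without that library, which held the lowest value for 38 of the 43 genes. With no effect present, 4 conditions take up a larger share than 3 numbers, so the shares do not rank the 2. Of the sums of squares of the 43 genes, condition held 31.9%, replicate number 30.5% and the remainder 37.6%, against 22.5%, 47.2% and 30.3% over all genes. With condition in the model, edgeR called 12 of the 43 genes by replicate number (27.9%), against 52.3% of all genes. They were MAD2L1, PTTG1, CKS2, KIF23, CENPE, CDC20, KIF20B, AURKA, ASPM, MKI67, UBE2C and the checkpoint kinase-like BUB1B. Without LPA-to-FAKi replicate 1 the count was 33 of 43 (76.7%), against 50.3% of all genes, and without stiff-to-soft replicate 3 it was 5, against 43% of all genes. The 12 genes did not share 1 order. CENPE had 55.3, 26.0, 48.7 and 51.6 CPM in replicate 1 of the stiff-to-soft, LPA-to-FAKi, LPA-to-soft and soft-to-soft conditions, and 29.5, 28.0, 33.0 and 28.9 CPM in replicate 3. It was lower in replicate 3 than in replicate 1 in 3 of these conditions and higher in the LPA-to-FAKi condition. PTTG1 had 100.5, 74.7, 94.9 and 99.8 CPM in replicate 1 and 119, 135, 124 and 119.8 CPM in replicate 3, and was higher in replicate 3 in all 4 conditions. The checkpoint protein MAD2L1 was lowest in replicate 1 of each condition, with 35.4, 30.3, 35.6 and 35.9 CPM in the 4 conditions, stiff-to-soft first, then LPA-to-FAKi, LPA-to-soft and soft-to-soft. CDC20 was highest in replicate 2 of the 4 conditions, with 394, 425, 358 and 449 CPM in the same order of conditions.

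The genes varied together in part, and how far they did depended on 1 library. Across the 12 libraries, Pearson's r between a gene and the mean log2 CPM of the other 42 was over 0.5 for 39 genes and over 0.8 for 24, and was highest for TPX2, which activates Aurora A on the spindle, at 0.96. BUB3 at 0.19, MAD2L1 at 0.27 and PTTG1 at 0.28 followed the others least. Without LPA-to-FAKi replicate 1, r was over 0.5 for 31 genes and below 0 for 6, namely PTTG1 at -0.72, MAD2L1 at -0.67, HMMR at -0.46, CDC25B at -0.33, CCNB2 at -0.27 and CDC20 at -0.13. For KIF23, CDK1 and BUB1B r was 0.92 or more without it, and 0.70, 0.78 and 0.82 over the 12 libraries. These values are descriptions over libraries that share depth, condition and replicate number.

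**Figure D5:**
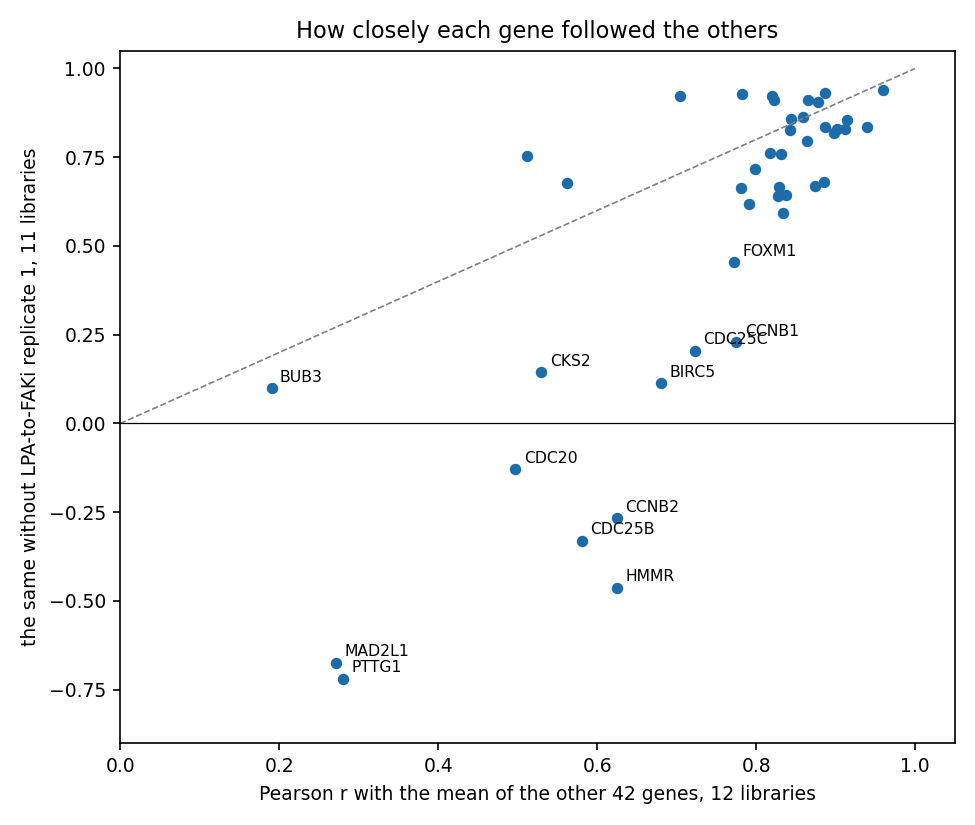
Pearson's r of each of the 43 genes with the mean log2 CPM of the other 42, over 12 libraries (x axis) and over 11 libraries without LPA-to-FAKi replicate 1 (y axis), with the dashed line at equal values and names for genes under 0.5 on the y axis. Most genes stay at the upper right, and 6 genes fall below 0 without that library, down to -0.72 for PTTG1.

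The 10 genes outside the 43 whose log2 CPM was most like the mean of the 43 over 12 libraries were FAM83D at r = 0.94, SPAG5 at 0.93, SMC2 at 0.93, PKP4 at 0.93, SLC16A5 at 0.92, RACGAP1 at 0.92, NEK2 at 0.91, GPR161 at 0.90, NCAPG at 0.89 and NCAPG2 at 0.89. FAM83D and SPAG5 encode spindle proteins, SMC2, NCAPG and NCAPG2 encode condensin subunits, RACGAP1 belongs to centralspindlin and NEK2 is a centrosomal kinase. SPAG5, PKP4, SLC16A5 and GPR161 stood on none of the cell cycle lists.

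The 75 other mitotic genes (condensin, kinetochore, spindle, cytokinesis and regulatory genes) also had their lowest mean in LPA-to-FAKi replicate 1, at 5.70. By list that held for spindle, cytokinesis and regulatory genes, whereas condensin and kinetochore genes were lowest in stiff-to-soft replicate 3, at 6.33 and 4.98, against 6.37 and 5.00 in LPA-to-FAKi replicate 1. For LPA-to-FAKi against LPA-to-soft their median log2 fold change was -0.087, with 23 positive, and within numbers it was -0.26, 0.033 and -0.035. edgeR called none of them in either direction, without or with the block. At an unadjusted p under 0.05 with the block, 3 were higher (11.5% of all genes) and 12 lower (10.8% of all genes). MAD1L1, the checkpoint partner of MAD2, stood at 0.29 ± 0.07 (edgeR with the block, adjusted p = 0.0853; DESeq2 with the block, 0.015), higher in 3 of 3 numbers. Against soft-to-soft cells WEE1, the kinase that holds CDK1 inactive, had 60.0, 63.3 and 83.1 CPM in LPA-to-FAKi against 82.0, 86.9 and 101 CPM in soft-to-soft libraries. The highest LPA-to-FAKi value exceeds the lowest soft-to-soft value, and WEE1 stood at -0.39 ± 0.0787 (adjusted p = 0.0612; DESeq2 with the block, 0.00113), with -0.45, -0.46 and -0.28 within the numbers. The 12 APC/C genes had a median of 0.038 for LPA-to-FAKi against LPA-to-soft, with 8 positive and 0 called in edgeR.

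Genes of the preceding S phase did not have their lowest mean in LPA-to-FAKi replicate 1. At 6.40 that mean was still the lowest of its condition, against 6.59 and 6.49 in LPA-to-FAKi replicates 2 and 3. For LPA-to-FAKi against LPA-to-soft, 30 of 35 S phase genes were positive, with a median log2 fold change of 0.14, and the median was 0.30, 0.12 and 0.044 in numbers 1, 2 and 3. The low side of number 1 was that of LPA-to-soft replicate 1, whose S phase mean of 6.13 was the lowest of the 12 libraries, against 6.40 in LPA-to-FAKi replicate 1. edgeR called 0 of the 35 without or with the block. With the block 7 had an unadjusted p under 0.05, all higher (11.5% of all genes), and DESeq2 with the block called 2 higher (4.91% of all genes). CDT1, which licenses origins of replication, had 101, 124 and 108 CPM in LPA-to-FAKi against 72.2, 104 and 81.1 CPM in LPA-to-soft libraries and stood at 0.39 ± 0.0997 (edgeR with the block, adjusted p = 0.0867). Against soft-to-soft cells the S phase median was 0.032 with 25 positive, and -0.12 in number 2, so the direction was not shared by all comparisons.

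Among 32 upstream regulators of the cell cycle, 7 were higher and 3 lower at an unadjusted p under 0.05 with the block for LPA-to-FAKi against LPA-to-soft (11.5% and 10.8% of all genes), and edgeR called none. Cyclin E1 (CCNE1), which drives entry into S phase, had 14.5, 16.9 and 14.6 CPM in LPA-to-FAKi against 9.65, 12.1 and 11.8 CPM in LPA-to-soft libraries. It stood at 0.46 ± 0.094 (edgeR with the block, adjusted p = 0.0757; DESeq2 with the block, 0.00186), higher in 3 of 3 numbers. RB1, the retinoblastoma protein that restrains S phase entry, stood at -0.25 ± 0.0607 (adjusted p = 0.0853; DESeq2 with the block, 0.0117), lower in 3 of 3 numbers. Between stiff-to-soft and soft-to-soft cells, the CDK inhibitor CDKN1A (p21) stood at -0.46 ± 0.122 (adjusted p = 0.144; DESeq2 with the block, 0.0161), with 145, 80.6 and 102 CPM in stiff-to-soft against 243, 82.6 and 151 CPM in soft-to-soft libraries. The D-type cyclin CCND2 stood at 0.90 ± 0.258 (adjusted p = 0.183; DESeq2 with the block, 0.0156), with 5.72, 17.0 and 9.93 CPM against 3.92, 7.33 and 5.46 CPM. For LPA-to-soft against soft-to-soft the smallest p among the other lists were those of the APC/C activator FZR1 and the subunit ANAPC11, at -0.16 ± 0.0578 and -0.16 ± 0.064 (adjusted p = 0.556 and 0.577).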

How the data were processed

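RNA of 12 Cal27 libraries was analysed. The gene counts were made and deposited by the authors, as were log2 values per library, which were only described and not tested. Per the submitters' processing notes, the tools included STAR, HTSeq, cutadapt, FastQC and DESeq2, and the build was hg19. The sources used here give no versions, order, settings or use of strand, so overlapping genes and near-identical copies may share reads. Spreadsheet conversion had turned 28 symbols into dates (0.1781% of counts), none of them among the 43 genes.

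The 43 genes and the other lists were chosen with earlier results of these data known. Samples were grouped by their labels. Genes kept by edgeR's low-count filter (15437 of 25382 symbols, 5880 of which had no count) were tested with edgeR 4.0.16 (TMM scaling, quasi-likelihood F test, Benjamini-Hochberg adjustment over all genes tested, threshold 0.05) in R 4.3.3 with limma 3.58.1, all conditions in 1 model. Log2 CPM used a prior count of 2. No pair of libraries held identical values. With totals of 62953957 to 122311183 counts, counting error was small beside the spread of libraries.

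Replicate numbers come from the labels. They paired the libraries: deviations from condition means correlated at 0.312 to 0.659 between libraries of the same number (18 pairs) and at -0.517 to 0.037 between others (36 pairs), and 12 of 12 correlated best with their own number. The fit without the block was set as the main one, and values with the replicate block stand beside it.

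All 43 genes are accounted for. Named with most detail were 7 chosen genes, and for each comparison the called genes or the 3 with the smallest p in each direction under the block, the lowest and highest fold changes, and up to 4 genes of the other lists. Alternatives were DESeq2 1.42.0 with and without the block, its size factors (RLE) in edgeR, no filter, each library left out, soft-to-soft libraries 1 and 2 left out, the counts of the other 10 libraries halved and, chosen after the data were seen, the 4 libraries numbered 1 left out in edgeR and LPA-to-FAKi replicate 1 left out in DESeq2 with the block. The fits were checked on simulated data. RefSeq promoter sequences of GRCh38.p14 were used for sequence only. The value of 1 leukocyte marker is not reported here.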

Additional observations from a re-analysis of the deposited data

Results flagged for a closer look

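Each of the 43 genes, and the mean of the 43, was examined in the class that learned and in the class that did not (6 libraries each) for a highest or lowest library whose gap to its neighbour, as a fraction of the range of the class, exceeded Dixon's 95% critical value. Such a gap was found in 6 of the 88 groups examined (43 genes and their mean, in both classes). The mean of the 43 passed in neither class. Chance gives about 1 in 20 for independent groups, but these genes share libraries and vary together in part, so the count cannot be judged against that rate. In the class that did not learn the low library was LPA-to-FAKi replicate 1 for CCNB1 (0.818), HMMR (0.756), CCNB2 (0.698), BIRC5 (0.653) and CCNA2 (0.644). In the class that learned, CDC20 was low in LPA-to-soft replicate 1 (0.628), at 299.9 CPM against 355.7 to 393.5 CPM in the other 5 libraries. LPA-to-FAKi replicate 1 had 237 CPM of CCNB1, against 362 and 380.5 CPM in the other LPA-to-FAKi libraries and 368, 378 and 349 CPM in soft-to-soft libraries. The cause was not tested.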

How the results depend on the processing

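With the replicate block, edgeR called 0 of the 43 genes in each comparison of conditions, as it did without it. DESeq2 with the replicate block called 6 for LPA-to-FAKi against LPA-to-soft, 2 for LPA-to-FAKi against soft-to-soft, 2 for stiff-to-soft against LPA-to-FAKi and 3 for any difference among conditions. Without LPA-to-FAKi replicate 1, chosen after the data were seen, these were 1, 0, 0 and 1, and 1 between the classes. Leaving out 1 library at a time gave 0 to 1 calls with the block for LPA-to-FAKi against LPA-to-soft, and 5 to 33 calls by replicate number, with 33 without LPA-to-FAKi replicate 1. The median log2 fold change then ran from -0.11 (without stiff-to-soft replicate 1) to 0.053 (without stiff-to-soft replicate 3) for stiff-to-soft against soft-to-soft, or -0.12 to 0.051 with the block. It ran from -0.13 to -0.014 for LPA-to-soft against soft-to-soft, from -0.22 to -0.077 for LPA-to-FAKi against LPA-to-soft (-0.22 to 0.0079 with the block) and from -0.30 to -0.10 for LPA-to-FAKi against soft-to-soft. For stiff-to-soft against LPA-to-FAKi it ran from 0.095 to 0.26, from -0.055 to 0.13 for the stiff-to-soft over the LPA-to-soft condition, and for the classes from -0.0097 to 0.11. Without soft-to-soft libraries 1 and 2 the median against soft-to-soft was 0.083 in stiff-to-soft cells and 0.033 in LPA-to-soft cells (0.075 and 0.031 with the block). These values rest on soft-to-soft replicate 3 alone. With the same libraries left out, MKI67 stood at 0.041 for LPA-to-FAKi against soft-to-soft. Without the 4 libraries numbered 1, chosen after the data were seen, the medians were -0.032 for LPA-to-FAKi against LPA-to-soft, -0.069 for LPA-to-FAKi against soft-to-soft, 0.0067 for stiff-to-soft against LPA-to-FAKi and -0.010 for the classes. The cause of these shifts was not tested. Among planned repeats of counts and medians, 505 stayed within the spread of libraries or within 1.5 times the count and 21 did not. That spread was the SD of the median differences in the 3 numbers, which number 1 widens. A move from -0.15 to 0.0079 for LPA-to-FAKi against LPA-to-soft fell within it, and a count of 0 in both fits also counted as unchanged. The tally is therefore no measure of how stable the medians were. Among those for single genes, 1007 kept their direction and side of the threshold, 12 newly passed it and 1 changed sign.

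With 3 libraries per condition and variation between replicate numbers as well as between conditions, calls in several comparisons depended on the tool. Each of the 43 genes had at least 878 counts in each library, so the spread of libraries limits precision more than depth.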
